A study of Mus musculus with 6 samples.

Results

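The 33 genes described here make, take up, store and export cholesterol. They were chosen by gene symbol from the 23393 named genes of the count table. Of these, 32 stood in the table under their current symbol, and Msmo1 stood there under its older symbol, Sc4mol. They comprised 18 enzymes of sterol synthesis and 15 genes of regulation, uptake, esterification, export and the LXR receptors. The samples were pieces of small intestine or tumour from C57BL/6 mice, all 12 weeks old, and their poly(A) RNA was sequenced in 2 groups of 3. The DKO tumour samples were small intestinal tumours of Villincre-positive mice with PKClambda f/f and PKCzeta f/f alleles, in which a recombinase driven by the villin promoter of intestinal epithelium deletes both atypical protein kinase C genes. The WT intestine samples were small intestine of Villincre-negative mice that carried the same floxed alleles. Cells outside the epithelium are not targeted by that promoter. Genotype and tissue (tumour or normal gut) changed together and cannot be told apart. The title of the study concerns serrated intestinal cancer and immune surveillance, and the comparison asks how tumours of the Villincre-positive mice differ from intestine of the Villincre-negative mice.

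Cholesterol is built from acetyl-CoA through mevalonate, isoprenoids, squalene and lanosterol. When sterol is scarce in the endoplasmic reticulum, SCAP escorts the transcription factor SREBP2 to the Golgi for activation, and the enzymes of the pathway are transcribed together. When sterol is plentiful, INSIG proteins hold SCAP back, while oxysterols activate the LXR receptors, which raise the export pumps ABCA1, ABCG1, ABCG5 and ABCG8. In the small intestine, absorptive enterocytes take up dietary and biliary cholesterol through NPC1L1, esterify it with SOAT2 (ACAT2 protein) for chylomicrons and return part of it to the lumen through ABCG5 and ABCG8.

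In DKO tumours, 14 of the 18 synthesis genes rose, by 2.62 to 7.47 times, whereas the sterol importer Npc1l1, the exporters Abca1, Abcg5 and Abcg8, the esterifying enzyme Soat2 and the LXR gene Nr1h3 fell. Levels are library-scaled counts (CPM) after TMM scaling. A log2 fold change above 0 means a higher level in DKO tumours, and SE is its standard error. A gene was called when its Benjamini-Hochberg adjusted p in the quasi-likelihood test of edgeR was below 0.05. Of the 33 genes, all had enough counts to be tested, and 18 were called higher and 7 lower. Among all 13866 genes tested, 29.7% were called, 15.9% higher and 13.8% lower, and the median log2 fold change was 0.02. The groups did not overlap in 24 of the 33 genes (17 higher and 7 lower in DKO tumours), against 48.0% of all genes tested. The number of genes called over the whole table was 4122, and it was 2733, 1866 or 2175 without DKO tumour 2, DKO tumour 3 or WT intestine 2. With library totals in place of TMM, 3779 genes were higher and 1065 lower, against 2211 and 1911 with TMM.

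Totals per library ranged from 12491561 to 15799269 counts. Of the targeted genes, Prkcz fell to 14.7 to 19.3 CPM in DKO tumours, against 60.8 to 70.1 CPM in WT intestine (log2 fold change -1.99, SE 0.152, edgeR adjusted p = 0.000233). Prkci stood at 80.35 to 103 CPM in DKO tumours and 53.3 to 80.7 CPM in WT intestine (0.41, SE 0.187, edgeR adjusted p = 0.134). A gene-level count holds reads of exons outside a deletion and of untargeted cells, so the level of Prkci does not check its deletion. Markers of gut position differed among the tumours, and some of them also differed between the groups. The duodenal iron gene Cybrd1 held 2189.5, 11.95 and 460.1 CPM in DKO tumours 1 to 3, against 5.97 to 6.80 CPM in WT intestine. The ileal bile acid binder Fabp6, which had too few counts to be tested, held 0.536, 71.8 and 0.0741 CPM in DKO tumours 1 to 3, against 0.315 to 0.472 CPM in WT intestine. The other proximal markers Slc40a1, Pdx1 and Onecut2 had the tumour order of Cybrd1, but Gata4 did not (log2 fold change -0.05). Cybrd1, Slc40a1 and Pdx1 were higher in every tumour than in any WT library (7.13, 5.91 and 6.91). Onecut2 was called higher with overlap (2.34), and Gata4 was not called. The other distal markers Slc10a2, Slc51a and Slc51b were also highest among the tumours in DKO tumour 2. Slc51a and Slc51b nevertheless lay below WT intestine in every tumour (-1.33 and -1.47). Of 10 enterocyte markers, 8 fell and 0 rose (0 at an unadjusted p below 0.05 in edgeR, and 0 in DESeq2), and their summed level was 10115 to 14056 CPM in DKO tumours and 31243 to 47828 CPM in WT intestine. Of 9 other epithelial markers, 2 rose and 1 fell. Their sums overlapped between the groups, at 11736 to 17297 CPM in DKO tumours and 11614 to 15173 CPM in WT intestine. Within these sums 3 genes were higher and 3 lower without overlap, against 25.1% and 22.9% of all genes tested. Krt18 had a log2 fold change of 2.40 and Epcam of -0.54 (edgeR adjusted p = 0.0723). Overlapping sums therefore do not show an equal share of epithelium. In whole tissue, fewer cells of a type and less RNA per cell cannot be told apart.

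Transcripts of sterol synthesis rose in DKO tumours as far as the removal of the lanosterol methyl groups, except for Tm7sf2, and its final steps did not pass the test. All 5 genes from Acat2 to Mvd rose (median log2 fold change 1.78), as did all 5 from Idi1 to Lss (2.10). After lanosterol, 4 of 8 rose and the median was 0.95. No synthesis gene fell (0 of 18 at an unadjusted p below 0.05 in edgeR, and 0 in DESeq2), and the median over the 18 genes was 1.82.

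**Figure D1:**
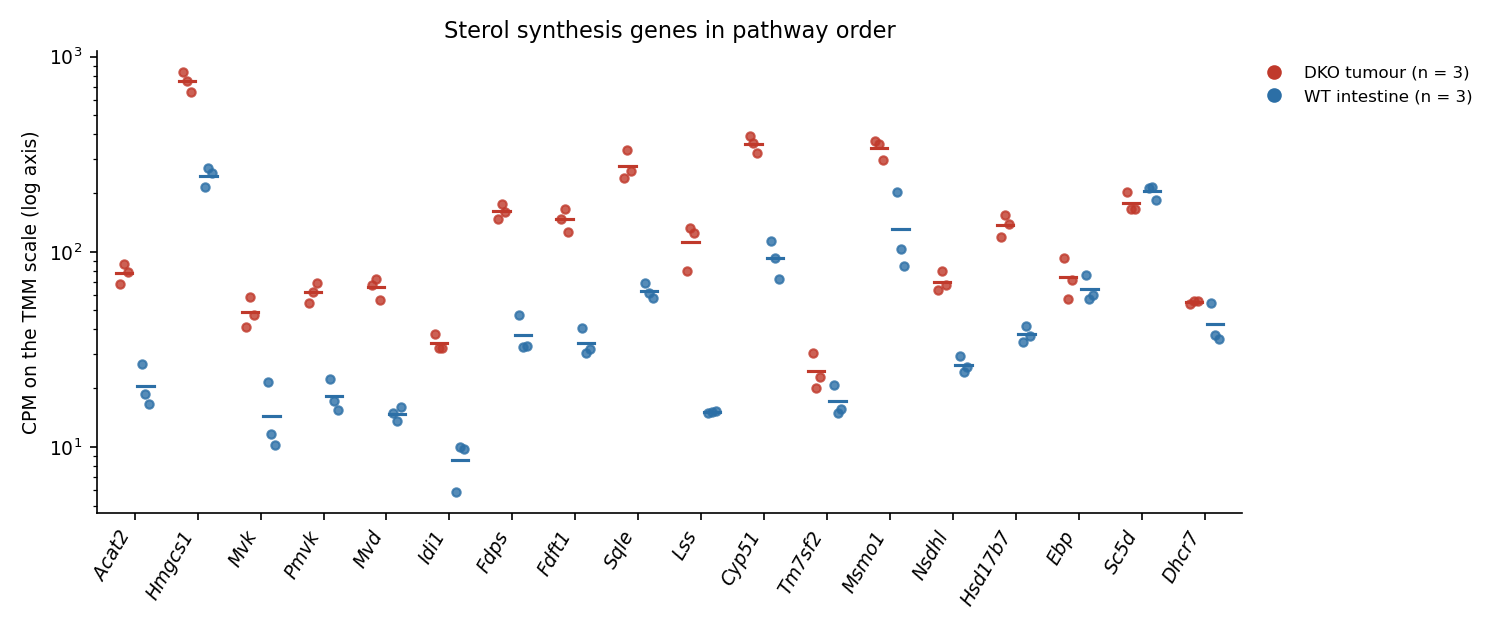
CPM (TMM scale, log axis) of the 18 sterol synthesis genes in pathway order, with 1 point per library (libraries 1 to 3 of a group from left to right) and a bar at the group mean. DKO tumours lie above WT intestine without overlap in 14 genes, and the groups overlap for Tm7sf2, Ebp, Sc5d and Dhcr7.

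The mevalonate steps came first in the pathway. Acat2, which joins acetyl-CoA units in the cytosol, was at 68.6, 87.0 and 78.6 CPM in DKO tumours and at 26.7, 18.6 and 16.5 CPM in WT intestine (log2 fold change 1.92, SE 0.206, edgeR adjusted p = 0.00077). Hmgcs1, the cytosolic HMG-CoA synthase (chr13:119690379-119708260), was at 837, 752 and 656 CPM in DKO tumours and at 214.5, 269 and 253 CPM in WT intestine (1.61, SE 0.177, edgeR adjusted p = 0.000854). Every tumour exceeded every WT library in both genes, and Hmgcs1 had the highest level per kilobase of transcript of the synthesis genes in either group, at 216 CPM per kilobase in DKO tumours and 70.9 in WT intestine. The kinases Mvk and Pmvk, which phosphorylate mevalonate in turn, averaged 49.1 and 61.8 CPM in DKO tumours and 14.4 and 18.3 CPM in WT intestine (log2 fold changes 1.78, SE 0.292, and 1.76, SE 0.178). WT intestine 1 was the highest WT library for both, at 21.5 CPM of Mvk and 22.3 CPM of Pmvk, and still lay below the lowest tumour. Mvd, the decarboxylase that yields isopentenyl diphosphate, was at 67.4, 72.8 and 56.7 CPM in DKO tumours and at 14.9, 13.5 and 16.0 CPM in WT intestine (2.15, SE 0.152, edgeR adjusted p = 0.000182). Acat3, a near copy of Acat2, held at most 1.79 CPM in a DKO tumour and 0.284 CPM in a WT library. It was also called higher (log2 fold change 3.57, edgeR adjusted p = 0.0118). How reads that match both genes were counted is not stated in these sources.

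The genes between isopentenyl diphosphate and lanosterol rose without exception among the 5. Idi1, the isomerase, was at 38.1, 32.0 and 32.2 CPM in DKO tumours and at 5.86, 9.99 and 9.81 CPM in WT intestine (log2 fold change 1.99, SE 0.222). Fdps, which makes farnesyl diphosphate, averaged 161 CPM (SD 14.0, n = 3) in DKO tumours and 37.5 CPM (SD 8.35, n = 3) in WT intestine (2.10, SE 0.181). Fdft1, squalene synthase, commits farnesyl units to sterols. It averaged 146.5 CPM (SD 20.1) in DKO tumours and 34.2 CPM (SD 5.53) in WT intestine (2.10, SE 0.171). Fdft1 shares 774 exon bases with Ctsb on the opposite strand, and the library kit kept strand, but whether the counting used it is not stated in these sources. Ctsb itself had a log2 fold change of 0.06 (SE 0.214, with an edgeR adjusted p of 0.855). Fdps shares 1124 exon bases with the gene model Gm43738, which has no row in the table, so the split of its reads is uncertain. Sqle, squalene epoxidase and a rate-limiting oxygen-dependent step, was at 239, 332 and 259.7 CPM in DKO tumours and at 69.0, 61.7 and 57.7 CPM in WT intestine (2.14, SE 0.171, edgeR adjusted p = 0.000267). Lss, lanosterol synthase (chr10:76531588-76557138), was at 79.3, 133 and 125.5 CPM in DKO tumours and at 14.8, 15.1 and 15.2 CPM in WT intestine. Its WT libraries were nearly equal and the lowest tumour was DKO tumour 1. Its log2 fold change, 2.90 (SE 0.213, edgeR adjusted p = 0.000198), was the largest of the 33 genes and was exceeded by 1.77% of all genes tested.

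After lanosterol some genes were called and others were not, and the difference between their fold changes was not tested. Cyp51, the demethylase that starts this stretch, was at 391, 360.1 and 321.5 CPM in DKO tumours and at 113, 92.6 and 72.7 CPM in WT intestine (log2 fold change 1.95, SE 0.195, edgeR adjusted p = 0.000616), and shares 166 exon bases with Akap9 on the opposite strand, which fell by 0.62 (edgeR adjusted p = 0.0164). Of the enzymes that remove the methyl groups at carbon 4, Msmo1 averaged 340.3 CPM (SD 39.8) in DKO tumours and 130.2 CPM (SD 63.4) in WT intestine (1.39, SE 0.317, edgeR adjusted p = 0.015). WT intestine 1 held 203 CPM of Msmo1, against 103 and 84.7 CPM in WT intestine 2 and 3, and the call ended without WT intestine 2 (edgeR adjusted p = 0.0657). Nsdhl averaged 70.1 CPM in DKO tumours and 26.3 CPM in WT intestine (1.41, SE 0.147), and Hsd17b7 138 and 37.8 CPM (1.87, SE 0.149). Both were higher in every tumour than in any WT library. The C14 reductase Tm7sf2 averaged 24.4 CPM (SD 5.34) in DKO tumours and 17.1 CPM (SD 3.21) in WT intestine (0.51, SE 0.21, edgeR adjusted p = 0.101), and under library totals it was called (0.79, edgeR adjusted p = 0.0199). Tm7sf2 also shares 532 exon bases on the same strand with Vps51, which was at 29.9 to 32.7 CPM in DKO tumours and 30.4 to 32.2 CPM in WT intestine.

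The last members of the pathway did not pass the test. Ebp, the sterol isomerase, was at 92.6, 57.3 and 71.7 CPM in DKO tumours and at 75.8, 57.1 and 60.3 CPM in WT intestine (log2 fold change 0.20, SE 0.2, edgeR adjusted p = 0.478). Sc5d, the desaturase, averaged 178 CPM (SD 21.6) in DKO tumours and 204 CPM (SD 17.1) in WT intestine (-0.19, SE 0.148, edgeR adjusted p = 0.35), and its sign turned under library totals (0.07). Dhcr7, which completes cholesterol from 7-dehydrocholesterol, was at 53.8, 56.0 and 55.9 CPM in DKO tumours and at 54.9, 37.4 and 35.8 CPM in WT intestine (0.37, SE 0.181, edgeR adjusted p = 0.154). The 3 tumours lay within 3 CPM of each other for Dhcr7, and WT intestine 1 overlapped them. Without WT intestine 1, the difference in Dhcr7 was 0.59 and was called (edgeR adjusted p = 0.011), as it was under library totals (0.65, edgeR adjusted p = 0.0131).

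**Figure D2:**
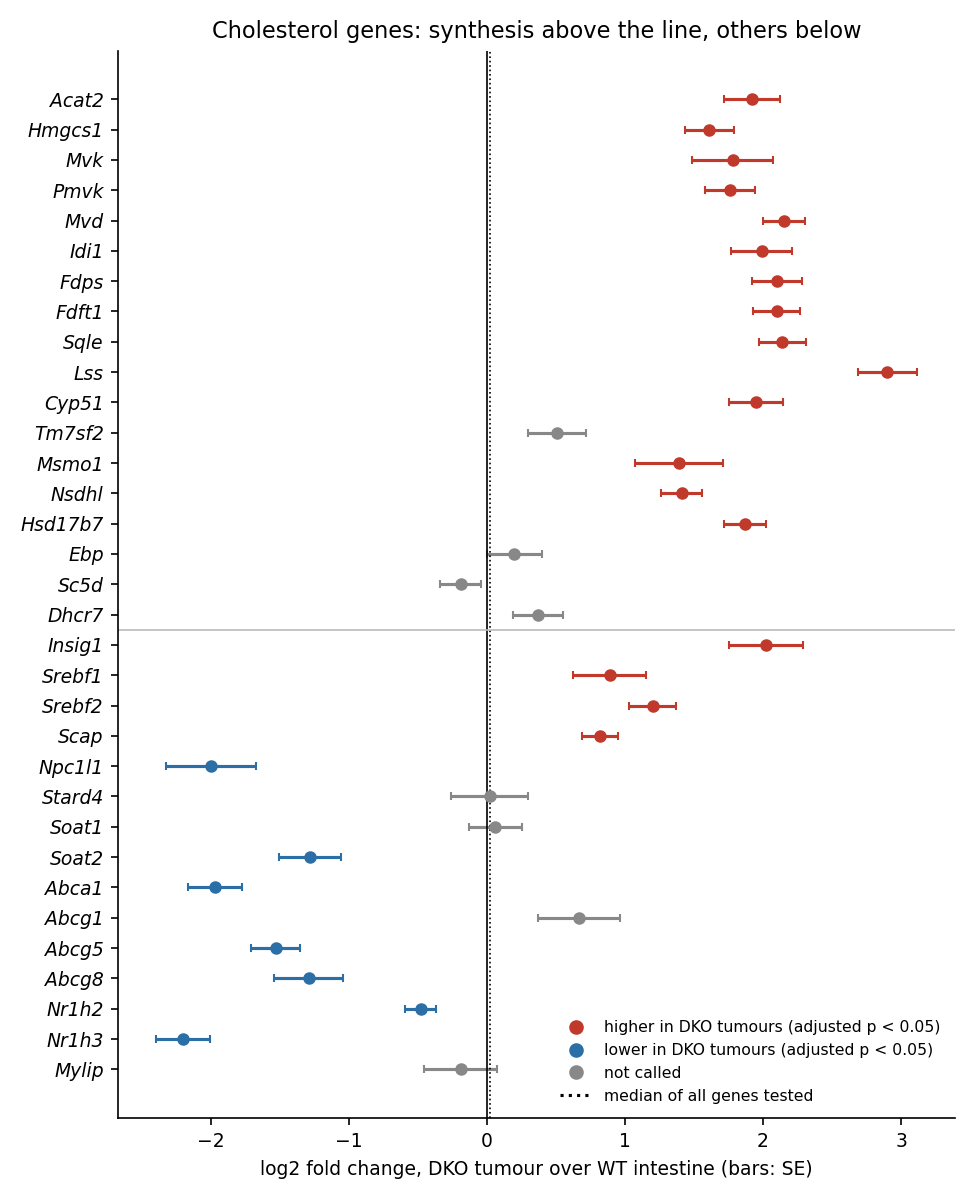
Log2 fold change of DKO tumour over WT intestine for the 33 genes, with bars of 1 SE and the median of all genes tested as a dotted line. Synthesis genes stand above the grey line in pathway order, with the largest value at Lss (2.90), and regulators, transport genes and LXR genes stand below it, with the lowest value at Nr1h3 (-2.20).

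The median of the synthesis genes was raised in each of the 3 tumours. Relative to the WT mean, the median log2 ratio of the 18 genes was 1.70, 1.93 and 1.84 in DKO tumours 1 to 3, and 0.24, -0.13 and -0.13 in WT intestine 1 to 3. Their summed level was 3043, 3119 and 2751 CPM in DKO tumours and 1221, 1066 and 974 CPM in WT intestine. Some markers of fibroblasts, endothelium and macrophages also moved with the group. Of 8 fibroblast genes, 6 rose and 1 fell (sums of 1054 to 1467 CPM in DKO tumours and 533 to 632.5 CPM in WT intestine), of 7 endothelial genes 4 rose (108 to 152 and 57.9 to 78.9 CPM), and of 10 macrophage genes 5 rose (343 to 492 and 195 to 252 CPM). Apoe was the largest part of the macrophage sums, at 202.4 to 331.5 CPM in DKO tumours and 90.6 to 113.6 CPM in WT intestine. The 5 macrophage genes not called had log2 fold changes between -0.39 for Adgre1 and 0.37 for C1qc. Of 8 cell cycle genes, 2 rose, against 15.9% of all genes tested. Without overlap 6 of the 8 were higher in DKO tumours, against 25.1% of all genes tested, and 5 were higher at an unadjusted p below 0.05. Mki67 and Top2a had log2 fold changes of -0.42 and -0.25 and were not called. Of 7 smooth muscle genes, 5 fell (697 to 1031 and 1381 to 1752 CPM). No gene of these fibroblast, endothelial, macrophage and smooth muscle lists was at 0 in a library. The part of these cell types in the changes of the 33 genes was not tested.

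The promoters of the synthesis genes can be set beside this shared direction, because sterol-regulated promoters typically pair a sterol regulatory element with a nearby CCAAT box bound by NF-Y. RefSeq windows of GRCm38.p6, running from 250 bases before to 50 after a start, matched 15 of the 18 synthesis genes and 12 of the other 15 genes. Each was searched on both strands for the letters TCACNCCAC (core of the sterol regulatory element), CCAAT, and the direct repeat bound by LXR with its partner (DR4, a pair of AGGTCA spaced by 4 bases). A CCAAT was present in 14 of 15 synthesis genes, in 8 of 12 other genes of the set and in 42.6% of the 10308 tested genes with a window. The 14 include the 4 synthesis genes that were not called, and Acat2 was the synthesis gene with a window but no match. The sterol element core stood in Hmgcs1 and in no other gene of the set with a window, against 1.42% of tested genes. The direct repeat stood in 0 of them, against 0 of the tested genes and 0.0148% of all genes with a window. A match describes letters and not a bound site. The synthesis genes Fdps, Fdft1 and Sqle had no window. Other forms of the sterol element, and bases outside the windows, were not searched. The 250 bases before the start are printed for 3 synthesis genes that rose, namely Hmgcs1 (chr13:119690101-119690350, plus strand), Mvk (chr5:114444019-114444268, plus strand) and Mvd (chr8:122443423-122443672, minus strand), and for 2 transport genes that fell, namely Npc1l1 (chr11:6230246-6230495, minus strand) and Abca1 (chr4:53159896-53160145, minus strand). They are written on the strand of the gene, and capitals mark the matches, where ATTGG is CCAAT on the other strand and TCACCCCAC in Hmgcs1, which begins 137 bases before the start, is the sterol element core.
Hmgcs1: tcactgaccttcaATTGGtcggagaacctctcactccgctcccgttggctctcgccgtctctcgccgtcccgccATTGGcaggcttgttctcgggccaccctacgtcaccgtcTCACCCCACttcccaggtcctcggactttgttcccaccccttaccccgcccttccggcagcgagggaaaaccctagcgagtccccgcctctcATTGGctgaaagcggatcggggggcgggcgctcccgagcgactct
Mvk: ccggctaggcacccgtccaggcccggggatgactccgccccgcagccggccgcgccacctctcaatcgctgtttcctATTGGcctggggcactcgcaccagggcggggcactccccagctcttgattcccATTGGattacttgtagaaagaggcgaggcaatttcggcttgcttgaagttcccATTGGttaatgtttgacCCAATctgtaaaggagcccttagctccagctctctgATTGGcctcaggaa
Mvd: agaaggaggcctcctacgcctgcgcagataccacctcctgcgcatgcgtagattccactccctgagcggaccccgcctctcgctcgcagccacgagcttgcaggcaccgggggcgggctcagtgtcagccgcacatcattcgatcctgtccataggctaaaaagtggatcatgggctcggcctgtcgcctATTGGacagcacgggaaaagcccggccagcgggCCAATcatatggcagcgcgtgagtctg
Npc1l1: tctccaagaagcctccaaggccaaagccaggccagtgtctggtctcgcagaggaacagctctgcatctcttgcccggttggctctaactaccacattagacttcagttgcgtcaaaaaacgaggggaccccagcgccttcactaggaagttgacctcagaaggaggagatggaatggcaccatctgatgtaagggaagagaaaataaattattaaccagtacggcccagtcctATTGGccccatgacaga
Abca1: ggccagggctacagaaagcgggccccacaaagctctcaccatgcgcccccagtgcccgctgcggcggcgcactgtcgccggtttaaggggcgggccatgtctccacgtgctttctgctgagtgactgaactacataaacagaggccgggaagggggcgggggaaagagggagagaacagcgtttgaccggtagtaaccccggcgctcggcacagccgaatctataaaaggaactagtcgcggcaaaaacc
In these bases Hmgcs1 held 3 CCAAT matches, Mvk 5, Mvd 2, Npc1l1 1 and Abca1 0. The number did not follow the direction of change gene by gene. Over the whole window, Acat2, which rose, held 0, and Pmvk, Lss and Cyp51, which also rose, held 1 each, while Abcg8, which fell, held 2.

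All 4 genes of SREBP control rose in DKO tumours. Insig1, the retention protein whose own transcription is driven by SREBP, was at 327, 198 and 245.5 CPM in DKO tumours and at 83.5, 61.4 and 45.8 CPM in WT intestine (log2 fold change 2.02, SE 0.269, edgeR adjusted p = 0.00184). Srebf2, which encodes SREBP2 (chr15:82147181-82205379), was at 215, 304 and 265 CPM in DKO tumours and at 112, 103 and 126 CPM in WT intestine (1.20, SE 0.171, edgeR adjusted p = 0.00242). Scap, the sterol-sensing escort, was at 65.8, 81.1 and 79.2 CPM in DKO tumours and at 41.9, 42.6 and 43.4 CPM in WT intestine (0.82, SE 0.129, edgeR adjusted p = 0.00357). In these 3 genes every tumour exceeded every WT library, with the highest tumour level in DKO tumour 1 for Insig1 and in DKO tumour 2 for Srebf2 and Scap. Srebf1, whose products include the lipogenic and LXR-responsive SREBP1c, was at 83.9, 176 and 162 CPM in DKO tumours and at 85.3, 69.5 and 73.6 CPM in WT intestine (0.89, SE 0.265, edgeR adjusted p = 0.0389). DKO tumour 1 lay within the WT range for Srebf1, which shares 109 exon bases with Rai1 on the opposite strand (0.52, edgeR adjusted p = 0.0684). The call ended in all 5 of the fits that left out a library other than DKO tumour 1 (edgeR adjusted p = 0.0598 to 0.129), and without DKO tumour 1 the log2 fold change was 1.16 (edgeR adjusted p = 0.00231).

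**Figure D3:**
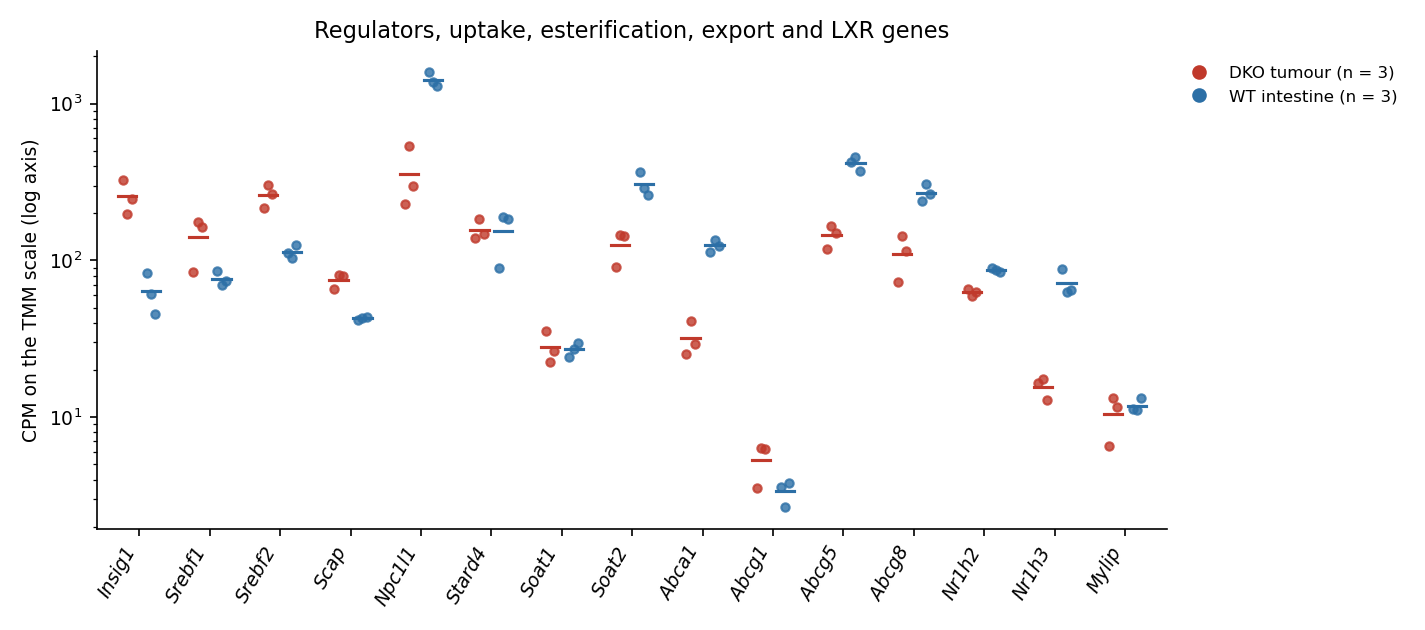
CPM (TMM scale, log axis) of the 15 genes of regulation, uptake, esterification, export and the LXR receptors, with 1 point per library (libraries 1 to 3 of a group from left to right) and a bar at the group mean. Insig1, Srebf2 and Scap lie higher in DKO tumours without overlap, and Npc1l1, Soat2, Abca1, Abcg5, Abcg8, Nr1h2 and Nr1h3 lie lower without overlap.

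Npc1l1, the intestinal cholesterol importer and target of ezetimibe (chr11:6211013-6230143), was at 228, 538 and 296 CPM in DKO tumours and at 1579, 1369 and 1296 CPM in WT intestine (log2 fold change -2.0, SE 0.324, edgeR adjusted p = 0.00404). The highest tumour, DKO tumour 2, was below the lowest WT library, and the log2 fold change was -2.42 without it and -1.75 without DKO tumour 1. Beside this, the 10 enterocyte markers had a median log2 fold change of -1.73, between -4.23 for lactase (Lct) and 0.97 for intestinal alkaline phosphatase (Alpi, edgeR adjusted p = 0.145). The 9 other epithelial markers had a median of 0.06, between -1.63 for the claudin gene Cldn15 and 2.40 for the keratin gene Krt18. The part of enterocytes and other epithelium in the falls of Npc1l1, Soat2, Abca1, Abcg5 and Abcg8 was not tested. Stard4, a soluble carrier that moves sterol between membranes inside cells, was at 139, 182 and 148 CPM in DKO tumours and at 90.1, 189 and 183 CPM in WT intestine (0.02, SE 0.276, edgeR adjusted p = 0.963). WT intestine 1 stood apart for Stard4, and the value was -0.26 without it and -0.10 without DKO tumour 2.

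Of the genes that esterify cholesterol, Soat2 was called and Soat1 was not. Soat2, the form of enterocytes and hepatocytes, was at 90.3, 144 and 143 CPM in DKO tumours and at 363.5, 289.6 and 263 CPM in WT intestine (log2 fold change -1.28, SE 0.224, edgeR adjusted p = 0.00548), with no overlap. Soat1, the form found in most tissues and in macrophages, was at 35.5, 22.4 and 26.5 CPM in DKO tumours and at 24.2, 27.1 and 29.9 CPM in WT intestine (0.06, SE 0.193, edgeR adjusted p = 0.849). Its sign turned without DKO tumour 1 (-0.14) or WT intestine 1 (-0.03). The difference between the 2 fold changes was not tested.

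Of the 4 exporters, 3 fell. Abca1, which loads cholesterol onto apolipoprotein A-I at the basolateral side of enterocytes and in macrophages (chr4:53030787-53159895), was at 25.4, 40.9 and 29.1 CPM in DKO tumours and at 114, 136 and 124 CPM in WT intestine (log2 fold change -1.97, SE 0.195, edgeR adjusted p = 0.000595). Abcg5 and Abcg8, partner subunits of the transporter that returns sterols to the gut lumen, lie head to head on chromosome 17 and share 82 exon bases on opposite strands. Abcg5 was at 119, 166 and 150.5 CPM in DKO tumours and at 423.5, 457 and 374 CPM in WT intestine (-1.53, SE 0.178, edgeR adjusted p = 0.00106). Abcg8 was at 72.5, 143 and 116 CPM in DKO tumours and at 238, 308 and 266 CPM in WT intestine (-1.29, SE 0.25, edgeR adjusted p = 0.00801). The tumours did not overlap WT intestine in these 3 genes. Beside them, the median log2 fold change of the 10 enterocyte markers was -1.73. Abcg1, an exporter of macrophages and other cells to high-density lipoprotein, was low in both groups, at 3.51, 6.38 and 6.22 CPM in DKO tumours and 3.59, 2.67 and 3.83 CPM in WT intestine (0.67, SE 0.297, edgeR adjusted p = 0.126). It was called higher without DKO tumour 1 (0.91, edgeR adjusted p = 0.0315) and under library totals (0.92, edgeR adjusted p = 0.0455). Across Npc1l1, Soat2, Abca1, Abcg5 and Abcg8, the lowest of the 3 tumours was DKO tumour 1, the tumour with the most Cybrd1 transcript. Of the 10 enterocyte markers, 7 were lowest among the tumours in DKO tumour 1, and the other 3, Alpi, Fabp1 and Treh, were highest there. The part of gut position in that order, and in the differences between the groups, was not tested.

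Both LXR genes were called lower. Nr1h3, encoding LXR alpha (chr2:91184061-91202834), was at 16.5, 17.5 and 12.8 CPM in DKO tumours and at 88.1, 62.5 and 64.9 CPM in WT intestine. The difference, -2.20 on the log2 scale (SE 0.194, edgeR adjusted p = 0.000369), was lower than that of 98.2% of all genes tested. Nr1h2, encoding the widely expressed LXR beta, averaged 62.6 CPM (SD 3.33) in DKO tumours and 87.1 CPM (SD 2.51) in WT intestine (-0.48, SE 0.114, edgeR adjusted p = 0.0177). That call ended without DKO tumour 2 or 3 or WT intestine 2 or 3 (edgeR adjusted p = 0.0503 to 0.0891) and under library totals (-0.22, edgeR adjusted p = 0.212). Mylip, the LXR-induced ligase that degrades lipoprotein receptors, was at 6.55, 13.2 and 11.6 CPM in DKO tumours and at 11.3, 11.1 and 13.2 CPM in WT intestine (-0.19, SE 0.265, edgeR adjusted p = 0.616), and its sign turned without DKO tumour 1 (0.07) and under library totals (0.06).

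Further genes of the same pathways were taken from 6 lists. Among 60 tested of 61 genes, 17 rose and 6 fell (27 and 4 under library totals), and the median log2 fold change was 0.09. Of all genes tested, 15.9% were called higher and 13.8% lower. Without DKO tumour 3 the total of 23 called genes was 14. In the list of other synthesis and SREBP processing genes, 2 of 10 rose and 1 fell, shares near those of all genes tested. Mbtps2, the site-2 protease that releases active SREBP, rose by 0.85 (SE 0.175). Acat1, a mitochondrial thiolase of ketone and isoleucine metabolism, fell by 0.72 (SE 0.214, edgeR adjusted p = 0.0382), a call that ended without any 1 library other than DKO tumour 1, and under library totals or upper-quartile factors. Lbr, a nuclear envelope protein with the same C14 reductase activity as Tm7sf2, averaged 127 CPM in DKO tumours and 95.4 CPM in WT intestine (0.42, edgeR adjusted p = 0.0686), and it was called without DKO tumour 1 (0.51), under upper-quartile factors (0.50) and under library totals (0.67).

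No gene of the branches that lead from isoprenoids to ubiquinone, dolichol and prenylated proteins was called by edgeR or DESeq2 (0 of 9, and 0 at an unadjusted p below 0.05), and their median was -0.13. Ggps1, the geranylgeranyl diphosphate synthase that uses the product of Fdps, was at 19.6, 18.9 and 19.3 CPM in DKO tumours and at 19.7, 24.9 and 23.1 CPM in WT intestine (-0.23, SE 0.144, edgeR adjusted p = 0.26; 0.02 under library totals). The values of Pdss1, Fntb and Nus1 were -0.29, -0.43 and 0.26, and Nus1, a subunit of the dolichol-forming enzyme, was called without WT intestine 1 (0.47) and under library totals (0.54).

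Of 11 genes of lipoprotein and lysosomal uptake, 6 rose and 0 fell (1 lower at an unadjusted p below 0.05, and 1 in DESeq2). Over all genes tested, 15.9% were called higher and 13.8% lower. Scarb1, the high-density lipoprotein receptor, was at 125, 15.5 and 56.3 CPM in DKO tumours and at 14.7, 5.11 and 6.04 CPM in WT intestine (2.95, SE 0.735, edgeR adjusted p = 0.0206). The order of the tumours for Scarb1 was that of Cybrd1, its value was 2.09 without DKO tumour 1 and 3.55 without WT intestine 1, and its call ended without DKO tumour 3 or WT intestine 2 or 3. The lysosomal genes Scarb2 and Lipa rose by 1.20 (SE 0.182) and 0.85 (SE 0.238), and the receptor Vldlr by 0.90 (SE 0.24). The call for Lipa ended without any 1 of DKO tumours 1 and 3 and WT intestine 2 and 3, and that for Vldlr also without WT intestine 1.

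Fatty acid synthesis, the arm served mainly by SREBP1, rose in 7 of 13 genes, against 15.9% of all genes tested. The number that fell was 0 (0 at an unadjusted p below 0.05 in edgeR, and 0 in DESeq2). Fasn, fatty acid synthase, was at 174, 355.5 and 274 CPM in DKO tumours and at 49.6, 54.1 and 76.9 CPM in WT intestine (log2 fold change 2.15, SE 0.29, edgeR adjusted p = 0.0019). The desaturase Scd2 averaged 861 CPM (SD 328) in DKO tumours and 92.9 CPM (SD 17.5) in WT intestine (3.21, SE 0.317), and Acsl3, an acyl-CoA synthetase, 230.4 and 71.1 CPM (1.70, SE 0.181). Acly and Acaca, which make cytosolic acetyl-CoA and malonyl-CoA, rose by 1.07 (SE 0.2) and 1.17 (SE 0.222), and the elongase Elovl6 by 1.01 (SE 0.236), a call that ended without DKO tumour 3 or WT intestine 3. Scd1 ranged from 37.5 to 279 CPM in DKO tumours and from 2.55 to 33.6 CPM in WT intestine (3.24, SE 0.924, edgeR adjusted p = 0.0331). Its value was 2.57 without DKO tumour 2 and 4.28 without WT intestine 3, and its call ended in 4 of the 6 fits that left out a library, all but those without DKO tumour 1 or WT intestine 3.

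**Figure D4:**
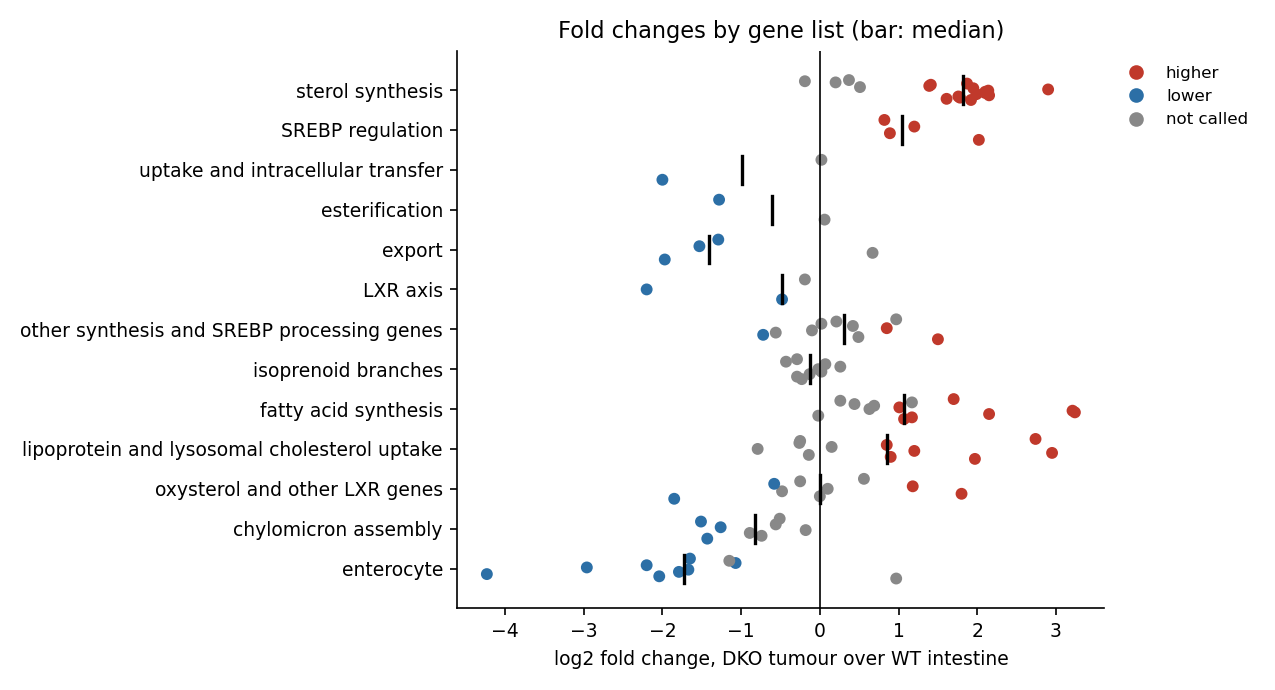
Log2 fold change of DKO tumour over WT intestine, with 1 point per tested gene for the 33 cholesterol genes by role, the 6 lists of further pathway genes and the enterocyte markers, coloured by edgeR call, and a bar at each median. Synthesis (median 1.82), SREBP regulation (1.04) and fatty acid synthesis (1.07) lie to the right of 0, and export (-1.41) and enterocyte markers (-1.73) to the left.

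Of 9 tested genes that make oxysterols or act with LXR, 2 were higher and 2 lower, shares near the 15.9% and 13.8% of all genes tested. Rxra, the partner receptor of LXR, averaged 112 CPM in DKO tumours and 167 CPM in WT intestine (-0.58, SE 0.122, edgeR adjusted p = 0.0115), and under library totals it was not called (-0.32). Cyp27a1, the sterol 27-hydroxylase, was at 27.6, 31.8 and 31.5 CPM in DKO tumours and at 217, 55.1 and 55.8 CPM in WT intestine (-1.85, SE 0.517, edgeR adjusted p = 0.0311). WT intestine 1 set most of the size of that fall, which was -0.88 without it (edgeR adjusted p = 0.0044), and the call ended without any 1 of the tumours. Ch25h, the cholesterol 25-hydroxylase, was at 1.97 to 3.26 CPM in DKO tumours and 0.472 to 1.23 CPM in WT intestine (1.80, SE 0.411), and its call ended without WT intestine 2 or 3 or DKO tumour 3. Abca5, a transporter of the same subfamily as Abca1, was at 3.69 to 9.89 CPM and 2.74 to 3.57 CPM (1.18, SE 0.362), and was not called in the fits without DKO tumour 1 or 3 or any 1 WT library.

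Chylomicron assembly, which carries absorbed cholesterol ester and fat out of the enterocyte, fell in 3 of 8 genes, against 13.8% of all genes tested. At an unadjusted p below 0.05 in edgeR 5 were lower, as were 5 in DESeq2. The number that rose was 0 (0 at an unadjusted p below 0.05 in edgeR, and 0 in DESeq2). Apob, its structural protein, was at 3006, 3315 and 3380 CPM in DKO tumours and at 7225, 11130 and 7720 CPM in WT intestine (log2 fold change -1.43, SE 0.258, edgeR adjusted p = 0.0062). The triglyceride enzymes Mogat2 and Dgat1 were at -1.51 (SE 0.225) and -1.26 (SE 0.247). Apoa1, the acceptor of cholesterol exported by ABCA1, averaged 5411 CPM (SD 868) in DKO tumours and 10019 CPM (SD 4207) in WT intestine (-0.89, SE 0.337, edgeR adjusted p = 0.0812), with WT intestine 1 at 14846 CPM, and DESeq2 called it (-0.91, DESeq2 adjusted p = 0.00976).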

How the data were processed

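Raw read counts per gene symbol were deposited by the authors as 1 table with a column for each of the 6 samples. STAR, DESeq2 and the build mm10 are named, without versions, in the submitters' processing notes. The sources used here give no read counter, annotation or strand setting. The file is named for normal DKO tissue, while its column headers name the tumours and were followed. Of 23420 rows, 27 held a date in place of a symbol and were left out (0.218% to 0.241% of a library's counts). Nothing in the labels states separate litters or days, so p-values measure the spread between these samples.

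Genes that reached 10 counts in 3 libraries were compared with edgeR 4.0.16 (glmQLFit, glmQLFTest) after TMM scaling, in R 4.3.3, with all 6 libraries and no covariate, and p-values were adjusted over all 13866 genes tested. The code was tested on simulated data. Levels per kilobase used the GENCODE M21 coding transcript with the longest coding sequence, and coordinates are those of GENCODE M21 (mm10). Alternatives were the DESeq2 1.42.0 test, other scalings, other filters, a replicate block and leaving out each library. The members and gene lists were chosen with earlier results of these data known. Named from the further lists were the called genes and up to 4 with the smallest adjusted p, except that some called genes, though counted in their lists, are not reported here by name. Reads carry no molecular identifiers.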

Additional observations from a re-analysis of the deposited data

How the results depend on the processing

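Under the DESeq2 test, DESeq2 size factors, upper-quartile factors, no filter and a filter of 50 counts, all 33 genes kept their direction and their side of the threshold. Synthesis genes called numbered 14 under each of these and 16 under library totals, and 13 to 15 when 1 library was left out. For the other 15 genes the number was 11 with all libraries and 9 to 12 when 1 was left out, for the further pathway genes 23 and 14 to 24, and for all genes 4122 and 1866 to 4275. Library totals shifted the median of all genes by 0.26 and turned the signs of Sc5d (0.07), Mylip (0.06) and Ggps1 (0.02), none of which was called under either scaling. Leaving out a library turned the signs of Stard4 (-0.10 without DKO tumour 2 and -0.26 without WT intestine 1, range -0.26 to 0.19), Soat1 (-0.14 without DKO tumour 1 and -0.03 without WT intestine 1, range -0.14 to 0.21) and Mylip (0.07 without DKO tumour 1, range -0.39 to 0.07). The cause of these changes was not tested. The deviations of same-numbered libraries from their group means correlated at 0.0152, 0.0104 and -0.0304, and not every library correlated best with its own number. With 3 libraries a group, these values cannot exclude that samples of the same number shared a litter or day. With a replicate block 3296 genes, 14 synthesis genes, 9 of the other 15 genes and 21 further pathway genes were called. The block ended the calls of Srebf1 (edgeR adjusted p = 0.0914), Nr1h2 (0.0501), Acat1 (0.0592), Elovl6 (0.0509), Vldlr (0.0573), Cyp27a1 (0.0672) and Abca5 (0.0689). The biological coefficient of variation over all genes was 0.227, and with 3 samples a group a p above the threshold does not show equal levels.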
